A study of Mus musculus with 6 samples.

Results

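The GIMAP genes (GTPases of the immunity-associated protein family) form a single cluster on mouse chromosome 6, and the 8 members Gimap1, Gimap3, Gimap4, Gimap5, Gimap6, Gimap7, Gimap8 and Gimap9 were taken by symbol from a table of 26181 genes. All 8 were present and all 8 passed the filter on low values (mean normalised read count of 10 or more), beside 15819 genes tested in all. The RNA was that of CD8+ T cells from the spleen. The mice were wild-type C57BL/6, entered the study at 6 weeks of age and ate their diet for 7 weeks. The control group ate a diet labelled ND, and the other group ate CDAHFD, the common abbreviation of a choline-deficient, amino acid-defined, high-fat diet used to bring on steatohepatitis in mice. Each diet had 3 libraries. Nothing in the labels ties each library to an animal of its own, so every p-value is set against a spread between libraries that may be technical.

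GIMAP proteins bind GTP through a domain related to that of the septins, and they are made chiefly by lymphocytes. Some members sit in intracellular membranes through a hydrophobic tail, while others are soluble. They are best known for keeping resting T cells alive: loss of Gimap5 in rats or mice brings on lymphopenia, and loss of Gimap1 or Gimap6 also depletes mouse lymphocytes.

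The family's summed level was slightly lower, at 70093 ± 1921 normalised counts in CDAHFD against 73786 ± 832 in ND libraries (SD, n = 3), but this direction turned relative to 20 CD8 T cell identity genes. The mean log2 level of the 8 members minus that of those genes was -0.67 ± 0.00242 in ND and -0.49 ± 0.0388 in CDAHFD libraries, higher in every CDAHFD library. This turn was not particular to the family. Relative to the mean change of the identity genes, the median log2 change was 0.18 for the members and 0.22 for all genes tested. The single members moved apart. Gimap6 fell by 23.2% in CDAHFD libraries, and it stayed lower when the mean of the T cell genes set the scale. Its fall still lay within the range of the single identity genes, whose log2 changes ran from -0.48 to 0.39. Gimap7 was higher by 19.3%, and it too kept its direction under both scales. Gimap5 fell by 13.0% and Gimap4 fell by 9.01%, but relative to T cell genes Gimap4 rose and Gimap5 lay slightly above 0 without passing the test. Gimap3 rose by 6.65%, and Gimap1, Gimap8 and Gimap9 did not pass the test. In all, 5 of 8 members were called at a limma adjusted p under 0.05, against 47.1% of all genes tested. Of these, 3 were lower, against 22.5% of all genes, and 2 were higher, against 24.6%, so the number of calls alone does not set the family apart.

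Between 25314988 and 28067393 reads per library had been assigned to genes, and single members rested on 1594 to 25534 reads per library. Markers of the labelled cell type were all detected, but 16 of 20 CD8 T cell identity genes fell and 2 rose, and the list's summed level was 230550 to 239408 normalised counts in ND and 197058 to 203695 in CDAHFD libraries. The mean log2 change of these 20 genes was -0.24. All 10 macrophage markers rose. Their sum was 14260 to 15454 in ND and 123065 to 135367 in CDAHFD libraries, and none of them was at 0 in all libraries. B cell markers were present as well, with sums of 26021 to 27185 and 20477 to 21548, and 8 of 9 fell. Neutrophil, erythroid and plasma cell markers rose in 7 of 8, 6 of 6 and 4 of 6 genes tested, against 24.6% of all genes tested. CD4 T cell markers summed to 1414 to 1566 in ND and 1841 to 1926 in CDAHFD libraries. Of these 5 markers, 3 rose and 1, Cd4, fell. NK cell markers summed to 2308 to 2448 and 2926 to 2977, and 2 of 5 rose and 0 fell. Of 6 dendritic cell markers, 5 fell, against 22.5% of all genes tested. Of 5 endothelial markers tested, 3 rose and 1, Kdr, fell. The sum of that list was 4925 to 5044 in ND and 7794 to 8102 in CDAHFD libraries, and it was carried mostly by Pecam1 (4513 and 5297) and Stab2 (270.0 and 2461). The part of these other cells in the values of the Gimap genes was not tested. In bulk samples, fewer cells of a type and less RNA per cell cannot be told apart.

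Because the T cell genes shifted, each member is given on the deposited scale and relative to the mean of the 20 identity genes. That second scale moved the median log2 change of all tested genes from -0.01 to 0.22.

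The sequences just before the starts of the genes that moved most on the deposited scale are shown first. The lines give the 100 bases before the RefSeq start, 5′ to 3′ on the strand of the gene (GRCm38.p6, chr6:48708245-48708344 minus, chr6:48746097-48746196 plus and chr6:48718521-48718620 plus). Capitals mark GGAAGT, the core letters bound by ETS factors, TGTGGT (RUNX) and CCGCCC (SP and KLF factors), each on either strand.
Gimap6: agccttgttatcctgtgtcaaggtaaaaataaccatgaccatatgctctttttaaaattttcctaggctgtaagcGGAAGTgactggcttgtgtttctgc
Gimap5: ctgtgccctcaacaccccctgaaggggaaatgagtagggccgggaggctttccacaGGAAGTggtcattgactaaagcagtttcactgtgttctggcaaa
Gimap7: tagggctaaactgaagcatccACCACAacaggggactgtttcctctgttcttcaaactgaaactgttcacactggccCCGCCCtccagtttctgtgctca
In these lines Gimap6 and Gimap5, which were both lower on the deposited scale (Gimap5 not relative to the T cell genes), each hold GGAAGT. The line of Gimap7, which was higher, holds TGTGGT in its reverse complement and CCGCCC. Over the whole window of 300 bases (250 before the start to 50 after it), GGAAGT was found in 4 of 8 members, Gimap1, Gimap5, Gimap6 and Gimap9, against 23.8% of 32851 promoters in the table. TGTGGT was found in 3 of 8, Gimap1, Gimap4 and Gimap7, against 16.8%. CCGCCC was found in Gimap7 and Gimap9, against 35.7%. TGGGAA (Ikaros), whose end can overlap the ETS letters, was found in Gimap3 alone, against 25.6%. TGTTTAC (forkhead factors) was also found in Gimap3 alone, against 3.65%, and TATAAA in Gimap6 alone, against 13.6%. Both matches were in reverse complement and far from the start, with first bases at -247 in Gimap3 and -219 in Gimap6. None of the ETS, RUNX and SP and KLF letters was held by every member called lower, or by every member called higher. Among the called members, the ETS letters were in Gimap5 and Gimap6 only, both lower on the deposited scale. Any tie between these letters and the direction of change was not tested. Gimap4, lower on the deposited scale, held the RUNX letters, as Gimap7 did, and no ETS letters. Gimap9, which did not pass the test, held the ETS letters at 2 places, and the SP and KLF letters. Gimap3, higher on the deposited scale, held none of these 3 kinds. All of these are matches of letters, not measured binding.

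Gimap6 (ENSMUSG00000047867, chr6:48701582-48708225 on the minus strand in mm10, protein-coding) encodes a soluble member that binds the ATG8-type autophagy protein GABARAPL2. Its normalised counts were 14402, 15079 and 14810 in ND libraries 1 to 3, and 11919, 10979 and 11146 in CDAHFD libraries 1 to 3. Every CDAHFD library lay below every ND library, with a gap wider than the range within either diet. The log2 fold change was -0.38 (SE 0.04, limma adjusted p = 4.38e-09), and relative to the T cell genes it was -0.14 (limma adjusted p = 0.00597). This fall lay within the range of the single identity genes (-0.48 to 0.39), and the second p-value takes their mean as fixed. The size of the fall on the deposited scale exceeded that of 67.5% of all tested genes. Even the largest change in the family was thus a modest one in this comparison.

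Gimap7 (ENSMUSG00000043931, chr6:48718621-48724636, plus strand, protein-coding) encodes a soluble member whose GTPase activity is raised when it dimerises. It stood at 1687, 1626 and 1628 normalised counts in the ND libraries and at 2029, 1973 and 1897 in the CDAHFD libraries. The CDAHFD values were all higher, and the diets did not overlap. The log2 fold change was 0.26 (SE 0.05, limma adjusted p = 5.49e-05), and relative to the T cell genes 0.49 (limma adjusted p = 4.33e-10).

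Gimap5 (ENSMUSG00000043505, chr6:48746197-48754210, plus strand, protein-coding), the membrane-anchored member needed for long survival of peripheral T cells, was at 2486, 2590 and 2386 in ND and at 2083, 2220 and 2185 normalised counts in CDAHFD libraries. The CDAHFD libraries were all lower. Its log2 fold change was -0.20 (SE 0.05, limma adjusted p = 6.63e-04), whereas relative to the T cell genes it was 0.038 (limma adjusted p = 0.527), so Gimap5 was lower by about as much as those genes were on average.

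Gimap3 (ENSMUSG00000039264, chr6:48764464-48770851, minus strand, protein-coding) is the close relative of Gimap5 and acts with it in T cell survival. It was the most abundant member by normalised counts, with 23065, 22265 and 22323 in ND and 23869, 24182 and 24090 in CDAHFD libraries. The lowest CDAHFD library lay above the highest ND library. Its log2 fold change was 0.09 (SE 0.04), with a limma adjusted p of 0.0366. That call was lost without ND replicate 2 (limma adjusted p = 0.121) or 3 (0.113), without CDAHFD replicate 2 (0.112) or 3 (0.0925), and with equal library totals (0.0929). Relative to the T cell genes it was 0.33 (limma adjusted p = 5.86e-09).

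Gimap3 and Gimap5 share coding sequence, which bears on how well their reads can be told apart. Of the 50-base windows in the transcripts of Gimap3, 7.52% occur in Gimap5 as well, and 4.53% of those of Gimap5 occur in Gimap3. The longest shared run has 140 bases, lies wholly in the coding sequence of both (chr6:48765681-48765820 in Gimap3 and chr6:48752684-48752823 in Gimap5) and is shown as the stretch in which a read could come from either gene.
Gimap3 and Gimap5: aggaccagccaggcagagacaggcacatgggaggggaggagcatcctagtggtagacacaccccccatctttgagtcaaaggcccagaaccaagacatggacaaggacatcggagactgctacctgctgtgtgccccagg
With windows of 100 bases the shared part was 1.65% of Gimap3 and 0.966% of Gimap5. No other pair of members shared a window of 50 bases. How the authors' counting treated reads that match both genes is not given in the sources used here, and its part in the opposite signs of Gimap3 and Gimap5 on the deposited scale was not tested. The Gimap3 to Gimap5 ratio was 9.28, 8.60 and 9.35 in ND and 11.5, 10.9 and 11.0 in CDAHFD libraries, so it was higher in every CDAHFD library.

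Gimap4 (ENSMUSG00000054435, chr6:48684549-48692060, plus strand, protein-coding), known for speeding the death of T cells once apoptosis has begun, was at 15668, 15594 and 15279 in ND and at 14898, 14022 and 13461 normalised counts in CDAHFD libraries. The CDAHFD libraries were all lower. On the log2 scale the difference was -0.14 (SE 0.04, limma adjusted p = 0.00607), yet relative to the T cell genes it was 0.10 higher (limma adjusted p = 0.0319). Without CDAHFD replicate 3, the lowest library, the adjusted p was 0.0684 on the deposited scale.

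Gimap1 (ENSMUSG00000090019, chr6:48739054-48743795, plus strand, protein-coding), a membrane-anchored member required for mature T and B cells, was at 4528, 4153 and 4055 in ND and at 3966, 4034 and 3871 normalised counts in CDAHFD libraries. The diets did not overlap, but ND replicate 3 and CDAHFD replicate 2 were nearly level. The difference of -6.70% (95% interval -12.4% to -0.67%) did not pass after adjustment (limma adjusted p = 0.0636). It passed without ND replicate 3 (limma adjusted p = 0.0336) and with equal library totals (0.0239). Without ND replicate 1, the highest library, the log2 change shrank from -0.10 to -0.053 (limma adjusted p = 0.376). Relative to the T cell genes the sign turned, with a log2 value of 0.14 (limma adjusted p = 0.00771). Of its exonic bases, 36.0% overlap exons of other annotated genes, chiefly the antisense gene Gimap1os. The strand setting of the counting is not given in the sources used here, so reads of this stretch cannot be told apart. Gimap1os itself was at 232 ± 14.6 and 209 ± 2.99 normalised counts (SD, n = 3; limma adjusted p = 0.258).

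Gimap8 (ENSMUSG00000064262, chr6:48647234-48660875, plus strand, protein-coding), the longest member with several GTPase domains, was at 10378, 10175 and 10191 in ND and at 10906, 9928 and 9446 normalised counts in CDAHFD libraries. The CDAHFD libraries lay on both sides of the ND libraries. The difference was -1.68% (95% interval -7.65% to 4.67%, limma adjusted p = 0.684), and relative to the T cell genes the log2 value was 0.22 (limma adjusted p = 1.24e-04). Gimap9 (ENSMUSG00000051124, chr6:48676129-48679114, plus strand, protein-coding) was at 2383, 2346 and 2261 in ND and at 2536, 2281 and 2356 in CDAHFD libraries. These groups overlapped too, with a difference of 2.56% (95% interval -4.10% to 9.68%, limma adjusted p = 0.56), and relative to the T cell genes the log2 value was 0.28 (limma adjusted p = 1.91e-05). The intervals of both genes leave room for changes of a few percent in either direction on the deposited scale.

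**Figure D1:**
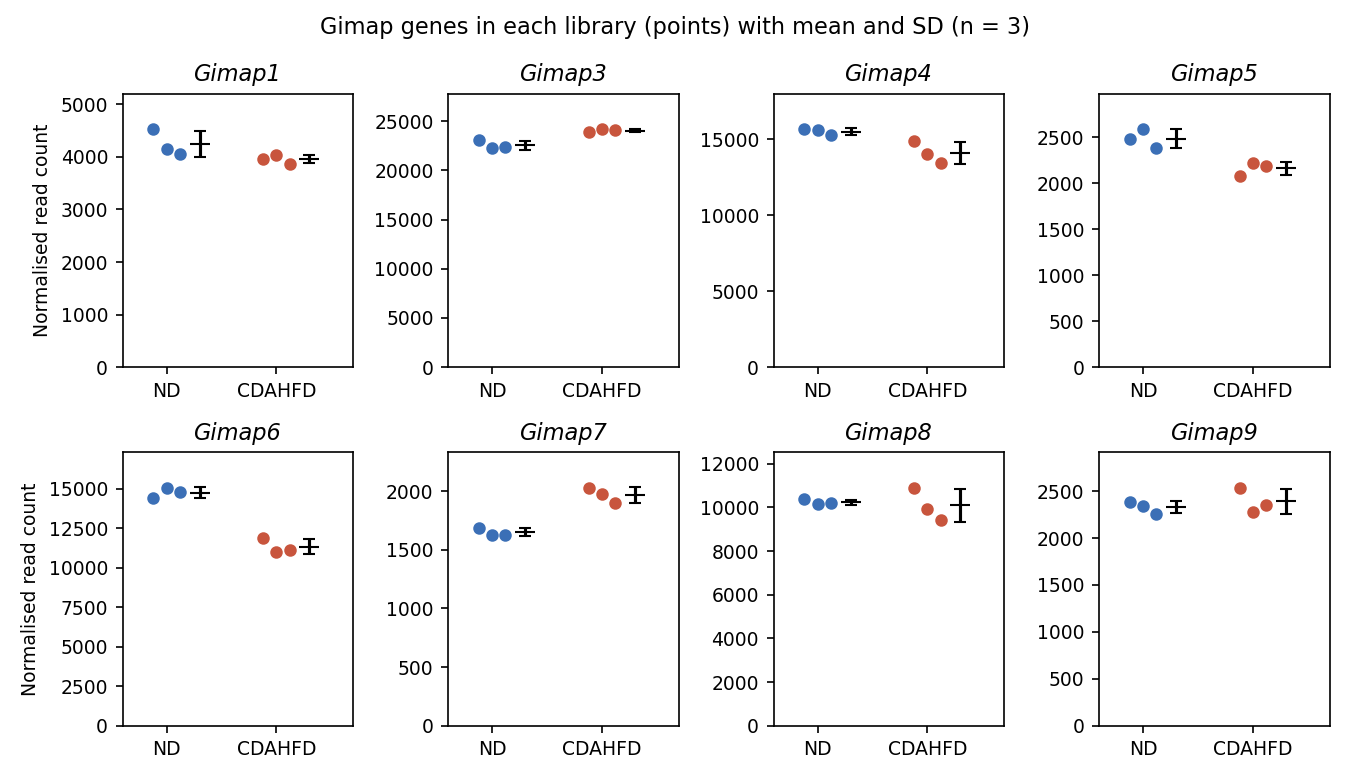
Normalised read counts (y axis, from 0) of the 8 Gimap genes in each of the 3 ND and 3 CDAHFD libraries (points), with the mean and SD beside them. Gimap6 is lower and Gimap7 higher in all 3 CDAHFD libraries, and the diets overlap for Gimap8 and Gimap9.

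On the deposited scale, 6 of 8 members had diets that did not overlap, 4 of them lower and 2 higher in CDAHFD, against 54.3% of all tested genes in either direction (26.5% lower and 27.8% higher). An exact two-sided permutation test of the diet labels gave p = 0.1 for each of those 6 genes, the smallest value that 3 against 3 libraries allow, 0.7 for Gimap8 and 0.6 for Gimap9. The median log2 change of the 8 members was -0.06, that of all tested genes was -0.01 and that of the T cell identity genes was -0.27. Among the 3813 tested genes with a mean at or above the lowest member's, 32.4% were called lower and 25.0% higher, with a median of -0.03.

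**Figure D2:**
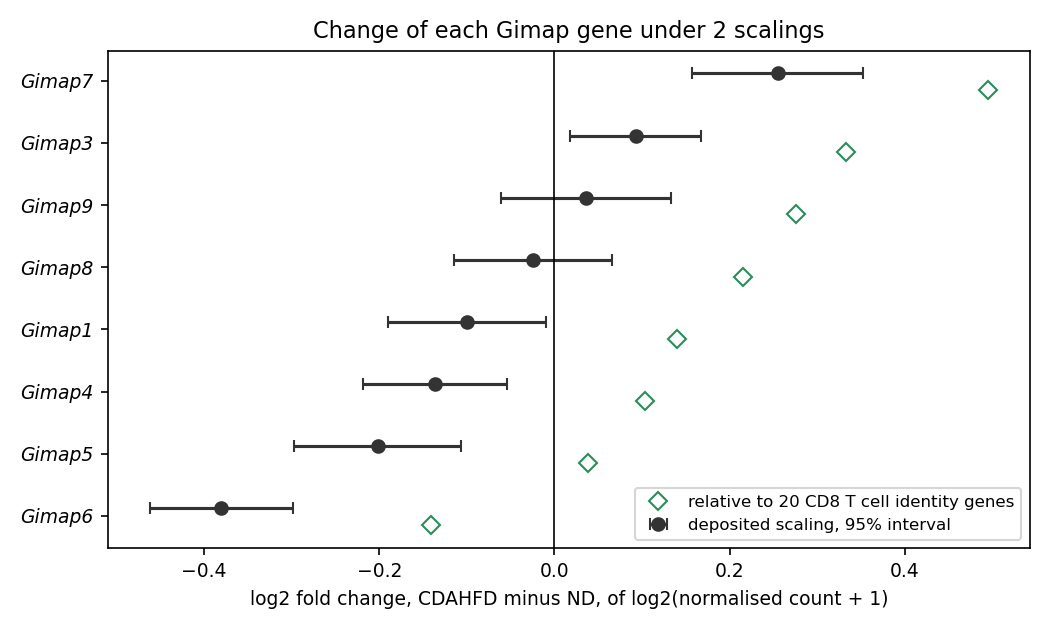
Log2 fold change (x axis, CDAHFD minus ND) of each Gimap gene on the deposited scale (filled points with 95% intervals) and relative to the mean of 20 CD8 T cell identity genes (open diamonds). Gimap6 lies below 0 and Gimap7 above 0 under both, while Gimap1, Gimap4, Gimap5 and Gimap8 change sign between them.

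Ratios and shares within the family do not depend on how the libraries are scaled. The 8 members together made up 0.280% ± 0.00218 of all normalised counts in ND and 0.263% ± 0.00459 in CDAHFD libraries (SD, n = 3). Gimap6 made up 19.3% to 20.4% of the family's counts in ND and 15.8% to 16.5% in CDAHFD libraries, a lower share in each CDAHFD library. Gimap3 took a larger share, 34.3% ± 1.12 against 30.6% ± 0.383, without overlap. Gimap7, the least abundant by counts, went from 2.23% ± 0.0290 to 2.81% ± 0.0313. The shares of Gimap1, at 5.75% ± 0.277 and 5.65% ± 0.151, and of Gimap8, at 13.9% ± 0.0973 and 14.4% ± 0.661, overlapped between the diets.

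The pair of members that moved farthest apart, chosen after their values were seen, was Gimap6 and Gimap7. Their ratio was 8.54, 9.27 and 9.10 in ND libraries and 5.87, 5.57 and 5.88 in CDAHFD libraries. The Gimap3 to Gimap6 ratio was 1.60, 1.48 and 1.51 in ND libraries. It reached 2.00, 2.20 and 2.16 in CDAHFD libraries, again without overlap. The Gimap5 to Gimap7 ratio was 1.51 ± 0.0708 in ND and 1.10 ± 0.0659 in CDAHFD libraries (SD, n = 3).

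**Figure D3:**
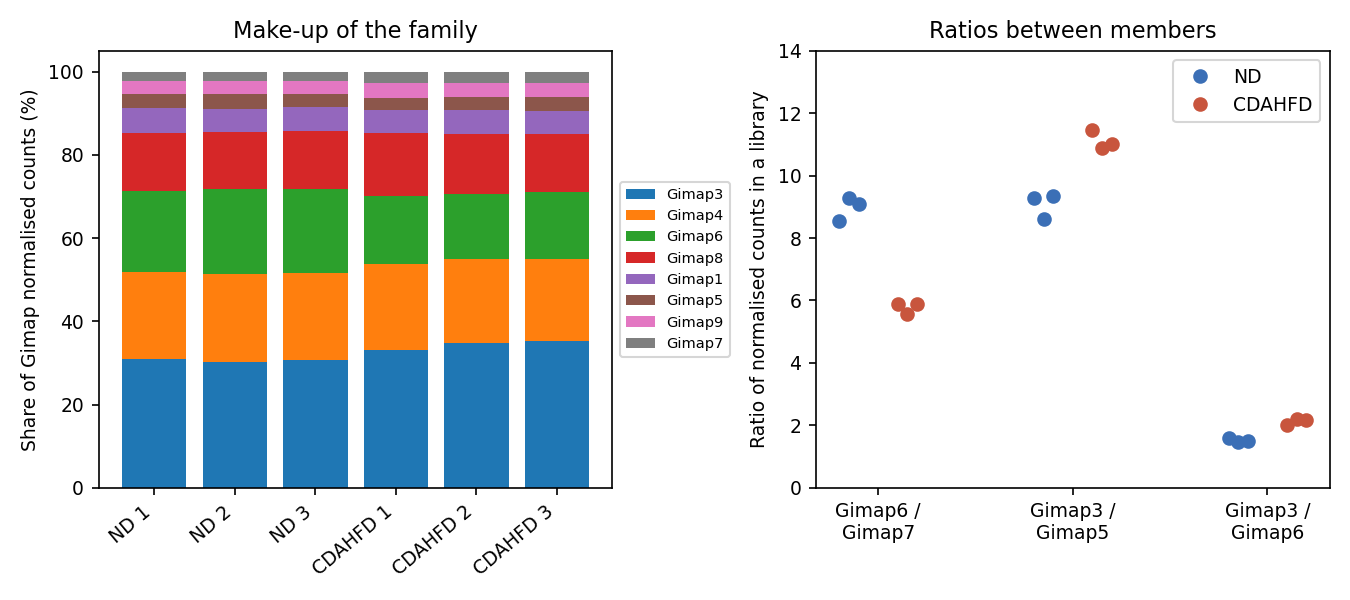
Left, the share (%) of the family's normalised counts taken by each Gimap gene in each library (stacked bars); right, ratios of normalised counts between 3 pairs of members in each library (points, ND and CDAHFD). The Gimap6 to Gimap7 ratio lies at 8.54 to 9.27 in ND and 5.57 to 5.88 in CDAHFD libraries.

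Per kilobase of annotated exon, Gimap3 and Gimap4 led the family in both diets. In ND libraries Gimap3 was at 8751 ± 173 normalised counts per kilobase and Gimap4 at 8445 ± 112. Gimap6 followed at 4223 ± 97.5, then Gimap8 at 2770 ± 30.5. Gimap9, at 1419 ± 38.2, and Gimap1, at 1381 ± 81.2, did not differ beyond their spread. Gimap7 was at 708 ± 14.7, and Gimap5 was lowest at 599.5 ± 24.5. The order was the same in CDAHFD libraries, where Gimap3 was at 9331 ± 62.4 and Gimap4 at 7690 ± 394, and Gimap7 at 846 ± 28.4 stood farther above Gimap5 at 521 ± 17.2. These levels use all annotated exons of a gene, so a gene that mainly uses a shorter transcript is understated. The gene model Gm28053 runs along the plus strand from Gimap7 across Gimap1 to Gimap5 and overlaps 3.48% of the exonic bases of Gimap7 and 3.69% of those of Gimap5. It was itself at 68.0 ± 30.2 and 63.9 ± 16.9 normalised counts (SD, n = 3).

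The cluster spans 124 kb, and the genes around it went both ways. Within 500 kb on either side, 14 protein-coding genes other than the members were tested, of which 5 were called higher (35.7%, against 24.6% of all tested genes) and 3 lower (21.4%, against 22.5%), with a median of 0.00. With 14 genes, these counts do not set the surroundings apart. On the side of Gimap8, the uncharacterised gene AI854703 rose from 100.1 ± 5.30 to 175 ± 6.22 normalised counts, and the zinc finger gene Repin1 rose from 101 ± 11.5 to 183 ± 3.02. Zfp775, between them, fell from 214 ± 4.92 to 177 ± 6.79 (limma adjusted p = 0.0441), and Lrrc61 fell from 414 ± 21.3 to 300.5 ± 17.0. Zfp467, farther out, rose from 133 ± 14.9 to 215 ± 14.3, while Krba1 (1479 ± 82.1 and 1368 ± 121) and Sspo (71.2 ± 6.01 and 71.4 ± 14.3) did not pass the test.

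On the side of Gimap3, the paired membrane protein genes Tmem176b and Tmem176a rose, from 297 ± 30.5 to 381 ± 12.2 and from 297 ± 15.4 to 363 ± 19.5 normalised counts. Both are known from myeloid and dendritic cells, and macrophage markers rose in the same libraries (median log2 change 3.00). Dendritic cell markers had a median of -0.58. The part of either cell type in the rises of Tmem176b and Tmem176a was not tested. Igf2bp3, an RNA-binding protein gene, fell from 78.8 ± 7.22 to 29.5 ± 7.48. The myeloid gene Gpnmb (12.3 ± 4.45 and 20.8 ± 6.63), Malsu1 (266 ± 32.4 and 246 ± 25.2) and the splicing factor gene Tra2a (4039 ± 50.6 and 4078 ± 22.9) did not pass. By mean normalised count, all of these tested neighbours but Tra2a lay below the least abundant Gimap gene.

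**Figure D4:**
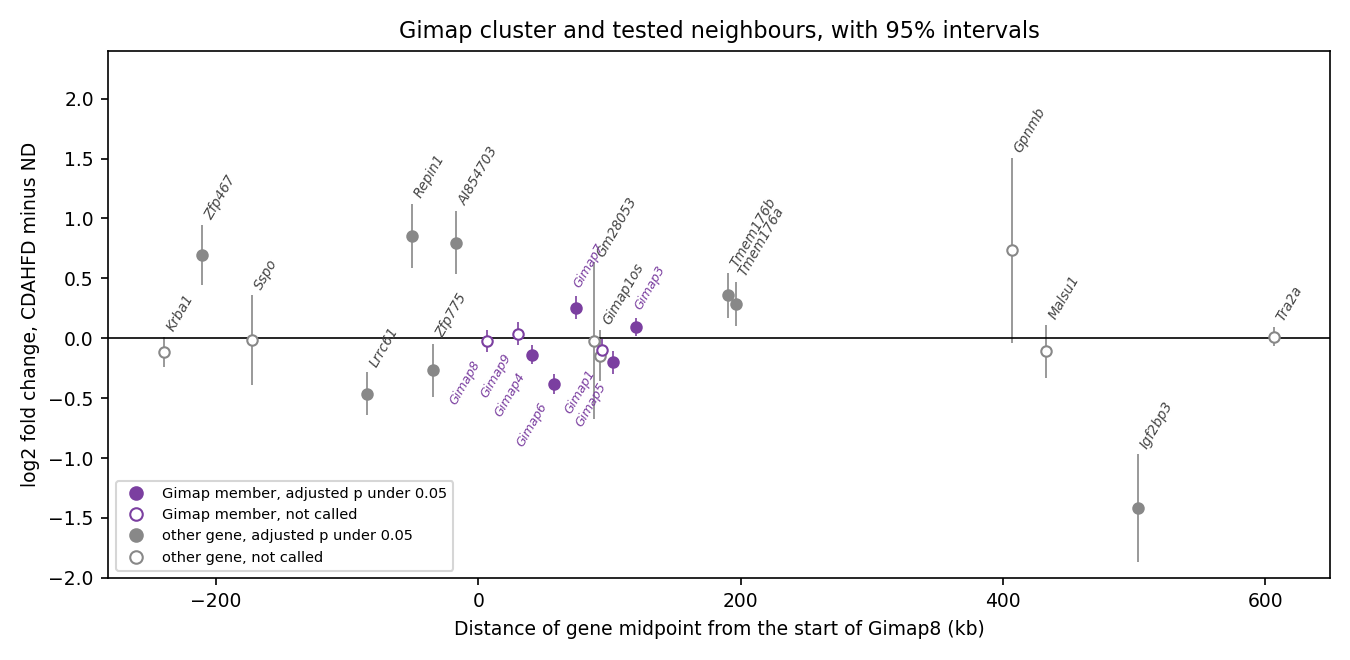
Log2 fold change with 95% interval (y axis) of the Gimap genes, the tested protein-coding genes within 500 kb and the antisense gene Gimap1os, by distance from the start of Gimap8 (x axis, kb). The members lie between -0.38 and 0.26, and neighbours on either side lie above and below them.

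The other genes of the survival pathway were described from lists chosen for what GIMAP proteins are known to bind or to affect. Over the 5 lists, 27 genes were called higher and 19 lower. The share of each list is given below, against 24.6% higher and 22.5% lower among all tested genes. Relative to the T cell genes 51 were called higher and 4 lower, beside 8066 and 991 of the 15819 tested. The whole table moved the same way under that scale, so counts on it are to be read against that shift. GIMAP proteins have been linked to members of the BCL2 family, which set the threshold for mitochondrial apoptosis. Among 13 such genes, 6 were called higher (46.2%) and 2 lower (15.4%), with a median of 0.01. Relative to the T cell genes 9 were called higher and 1 lower. The survival gene Bcl2 rose from 5389 ± 50.8 to 7297 ± 216 normalised counts, and Bcl2l1, which encodes BCL-XL, rose from 405 ± 34.0 to 596 ± 28.4. Their pro-apoptotic opponents went both ways. Bcl2l11, which encodes BIM, rose from 2460 ± 56.1 to 3430 ± 111, and Bbc3, which encodes PUMA, rose from 782 ± 58.1 to 1162 ± 91.0. The 2 genes of the list that fell are pro-apoptotic too, and are named here after their values were seen. Bmf fell from 652 ± 23.1 to 460.2 ± 37.6, and Bak1 fell from 1443 ± 90.2 to 1191 ± 10.1. Bax was at 1440 ± 109 and 1444 ± 78.0 (limma adjusted p = 0.942).

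Autophagy genes were listed because GIMAP6 binds an ATG8-type protein. Among 18 such genes, 8 were called higher (44.4%, against 24.6% of all tested genes) and 1 lower (5.56%, against 22.5%). Their median was 0.06. Relative to the T cell genes 16 were called higher and 0 lower, beside 8066 and 991 of all 15819 tested genes. The binding partner itself, Gabarapl2, rose slightly, from 1073 ± 57.2 to 1206 ± 90.0 (log2 fold change 0.17, SE 0.06, limma adjusted p = 0.0225), although its libraries overlapped between the diets. The larger rises were in its relatives Gabarapl1, from 186 ± 28.8 to 389 ± 68.7, and Map1lc3a, from 79.6 ± 7.14 to 161 ± 19.3. The cargo receptor Sqstm1 rose from 5282 ± 219 to 6612 ± 52.7, and the initiating kinase Ulk1 from 1305 ± 43.7 to 1672 ± 197. The other ATG8-type genes of the list are named here after their values were seen. Gabarap also rose, from 3395 ± 59.2 to 3782 ± 128 (limma adjusted p = 0.00298). Map1lc3b, at 3137 ± 55.6 and 3250 ± 64.7, did not pass (limma adjusted p = 0.337). Gimap6 was lower, and Gabarapl1, Gabarapl2, Map1lc3a and Gabarap were higher, in the same libraries. Macrophage markers rose beside them, and their part in these rises was not tested.

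Ceramide genes were listed because loss of GIMAP5 has been tied to ceramide balance in T cells. Among 11 such genes, 5 were called higher (45.5%, against 24.6% of all tested genes) and 3 lower (27.3%, against 22.5%). Their median was 0.14. Relative to the T cell genes 8 were called higher and 0 lower, beside 8066 and 991 of all 15819 tested genes. Asah1, the lysosomal ceramidase, rose from 1516 ± 122 to 3619 ± 302, in the same libraries in which macrophage markers rose. Among ceramide synthases, Cers6 rose from 562 ± 47.3 to 837 ± 44.3, Cers4 from 621 ± 23.1 to 789 ± 62.4 and Cers2 from 3275 ± 85.0 to 3784 ± 131. The fourth synthase of the list, Cers5, named after its values were seen, fell from 1735 ± 10.7 to 1493 ± 29.5 (limma adjusted p = 4.06e-04).

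Among 15 genes of survival signalling, 5 were called higher and 3 lower (median 0.07), and relative to the T cell genes 14 and 0. The interleukin 7 receptor Il7r rose from 14683 ± 344 to 28806 ± 850.3 and the shared chain Il2rb from 10120 ± 183 to 17971 ± 445. Their signal transducers Stat5a, from 2480 ± 61.2 to 2057 ± 31.9, and Stat5b, from 6337 ± 215 to 5734 ± 72.3, fell. Gsk3b, the kinase that GIMAP5 is reported to restrain, was at 3089 ± 84.3 and 3301 ± 68.4 (limma adjusted p = 0.0642).

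Transcription factors of resting lymphocytes were mostly lower. Among 14 such genes, 10 were called lower (71.4%, against 22.5% of all tested genes) and 3 higher (21.4%, against 24.6%). Their median was -0.18, against -0.27 for the T cell identity genes. Relative to the T cell genes 3 were called lower and 4 higher, beside 991 and 8066 of all 15819 tested genes. Foxo1, which maintains quiescence and drives Il7r, fell from 7417 ± 239 to 5645 ± 137 normalised counts. Lef1 fell from 10506 ± 334 to 7902 ± 307 and Satb1 from 16974 ± 628 to 12945 ± 506. Runx3, the factor of the CD8 lineage, rose from 3704 ± 42.1 to 4770 ± 190. Foxo1, with a log2 fold change of -0.39 (SE 0.04), and Gimap6, with -0.38 (SE 0.04), had falls of like size on the deposited scale. Those of Lef1 (-0.41) and Satb1 (-0.39) were of like size too, so this likeness was not particular to Foxo1.

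**Figure D5:**
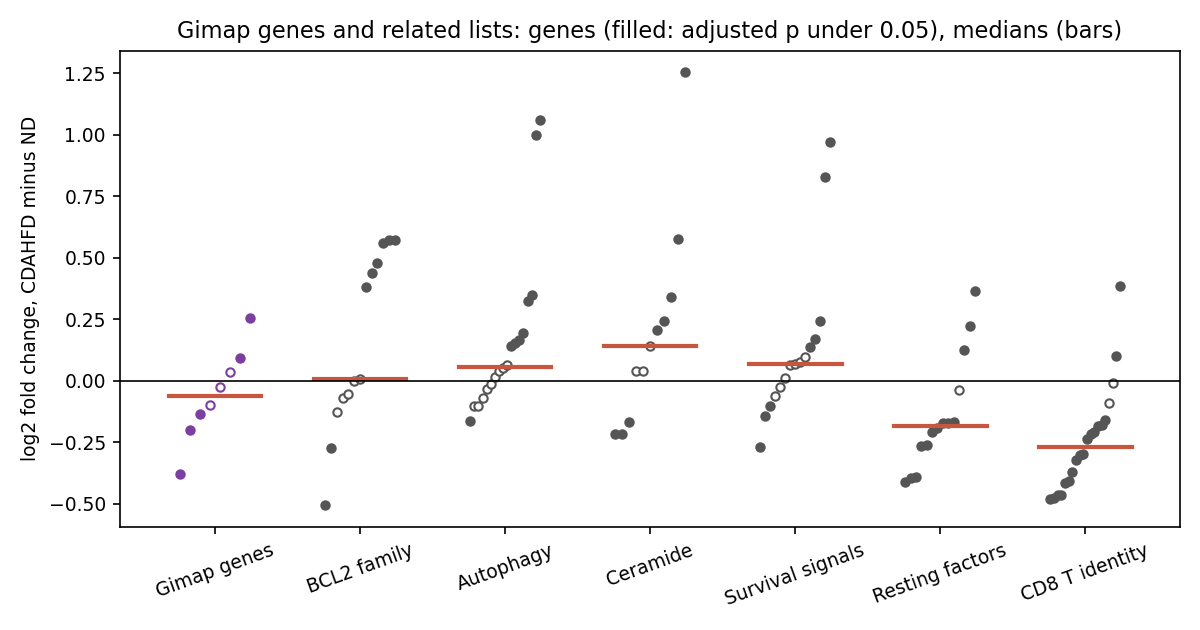
Log2 fold change (y axis, CDAHFD minus ND) of each Gimap gene and of each tested gene in 5 related lists and the CD8 T cell identity list (points, filled where the limma adjusted p was under 0.05), with medians as bars. The Gimap genes span -0.38 to 0.26 around a median of -0.06, above the medians of the identity list (-0.27) and the resting lymphocyte factors (-0.18) and below those of the other 4 lists.

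The genes whose pattern over the 6 libraries was most like the mean of the 8 members were found by the root mean square distance between centred log2 profiles, over 10219 protein-coding genes whose mean was 100 normalised counts or more. The 4 nearest were Agpat3 at 0.00591, Vsir at 0.0113, Lta4h at 0.0116 and Ptpra at 0.0118 log2 units. Each of them was nearer to the family's mean than any single member was, since members lay 0.0431 (Gimap8) to 0.165 (Gimap6) away. The 4 were picked as the nearest of 10219 genes and the members were not. The comparison is therefore only a description. The levels of the nearest gene, Agpat3, were 5333 in ND and 5139 normalised counts in CDAHFD libraries.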

How the data were processed

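RNA sequencing was done on 6 libraries, 3 per diet. The authors deposited 1 table of signal values, gene read counts divided by a factor per library, per the file headers and values. All values (100%, within 0.001) were whole multiples of the smallest value in their column, so whole reads were recovered. Per the submitters' processing notes the build was mm10. The aligner, counting tool, strand setting and annotation are not given in the sources used here. Per the labels' protocols, a whole-RNA or an mRNA kit was used, without saying which served which library. Columns spelled CDHFD were taken as the CDAHFD samples, the only other group.

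Symbols matched 26147 of 26181 Ensembl IDs. Coordinates, exon lengths and transcripts came from GENCODE M21 (same build). Promoters came from RefSeq (GRCm38.p6), where all 8 members matched. The test was limma 3.58.1 in R 4.3.3 on log2(normalised count + 1), with trend and robust estimation, for genes with a mean of at least 10, and Benjamini-Hochberg adjustment over 15819 genes. Log2 fold changes are on that scale and come out too small for low genes. The test was checked on simulated data. The members and gene lists were chosen with earlier results of these data known. Named were all members, tested protein-coding neighbours within 500 kb, up to 4 called genes of each pathway list with the smallest adjusted p, and Bcl2, Bcl2l1, Bax, Bcl2l11, Gabarapl2, Gsk3b, Foxo1 and Il7r. Alternatives were other pseudocounts, filters, scalings and limma settings, edgeR 4.0.16 and DESeq2 1.42.0 on recovered reads, a replicate block and each library left out.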

Additional observations from a re-analysis of the deposited data

How the results depend on the processing

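Gimap6 and Gimap7 kept their direction and their call under all 18 alternatives. Scaling to the T cell identity genes moved the most values: 1 Gimap gene was called lower and 6 higher, with 991 genes lower and 8066 higher over the whole table (3563 and 3886 as deposited), and 4 and 51 in the pathway lists. Under it the log2 changes of Gimap1 (0.14), Gimap4 (0.10), Gimap5 (0.038) and Gimap8 (0.22) turned positive. The cause is the construction of that scale, as the identity genes themselves changed by -0.24. The number of Gimap genes called higher was 1 with equal totals, without trend and robust estimation and with the replicate block, since Gimap3 no longer passed. Leaving out single libraries gave 1 to 2 Gimap genes higher and 2 to 4 lower. Leaving out single libraries, the uncalled log2 change of Gimap8 ranged from -0.082 to 0.022 (above 0 without CDAHFD replicate 3) and that of Gimap9 from -0.0068 to 0.070 (below 0 without CDAHFD replicate 1). Without trend and robust estimation, Gimap4 did not pass (adjusted p = 0.0953). edgeR and DESeq2 called 3 Gimap genes lower and 2 higher, as limma did. Replicate numbers are shared between diets, but same-numbered libraries did not deviate together (correlations 0.04, -0.05 and 0.06), so they were not treated as pairs. The replicate block gave 7250 called genes against 7449.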
